A study of Mus musculus with 50 samples.

Results

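The proteasome genes described here are the 51 genes whose symbol begins with Psm, a letter from a to g and a number, out of 19455 genes in the deposited table (52 of its 22338 transcripts). Genes were taken in by name only, with pseudogenes left out, but the list was chosen with earlier results of these data known. By role they comprise 8 genes of the alpha ring, 7 constitutive, 3 inducible and 1 thymic gene of the beta ring, 6 ATPases and 11 other subunits of the regulatory particle, 5 activator or inhibitor genes and 7 assembly chaperones. The name pattern also takes in Psmc3ip, Psme2b and Psme3ip1, which are named after a subunit or activator but are not counted as subunits below. The 36 genes of the core and regulatory particles are called the subunits.

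The study followed mRNA decay in KH2 mouse embryonic stem cells (C57BL/6 x 129/Sv) with and without the YTHDF proteins, cytoplasmic readers of the RNA mark m6A. WT cells were compared with Ythdf1_KO (written Ythdf1--/- in the labels), Ythdf2_KO (Ythdf2--/-), Ythdf3_KO (Ythdf3--/-) and Triple_KO (Ythdf1-/-Ythdf2-/-Ythdf3-/-) cells. All lines were grown in serum with LIF, plated on gelatin for 48 h and given 5 µM actinomycin D, which blocks transcription, for 0, 4 or 8 h. RNA was read at the 3′ end of polyadenylated transcripts in replicates A and B, with 2 libraries of each replicate at 0 and 8 h and 1 at 4 h. Whether A and B were grown separately, and whether a knockout line is 1 clone, is not given in the sources used here, so the p-values measure a spread that may be technical.

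The proteasome is the protease that degrades proteins tagged with ubiquitin. Its barrel-shaped core holds the catalytic beta subunits inside rings of alpha subunits, and the regulatory particle on either end binds, unfolds and deubiquitylates the substrate before the ATPases thread it into the core. Dedicated chaperones assemble both particles, and cells that respond to interferon exchange the catalytic subunits for inducible ones. In mammalian cells the transcription factor NFE2L1 is known to raise subunit genes together when proteasome activity falls. In embryonic stem cells the proteasome is known for its high activity.

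The 50 libraries held 796921 to 2341410 reads, and a level is given in FPM, the reads of a gene scaled to a fixed number of reads per library, with no correction for length. The listed genes held 43.3% of the reads in WT at 0 h and 33.2% at 8 h, against 44.3% and 41.1% in Triple_KO. Every change is therefore relative to a library total of which the listed genes took a smaller share at 8 h, and the median tested gene changed by -0.81 (log2) in WT over 8 h. Scaling the libraries on the median of well-detected genes moved that median to -0.46, and scaling by trimmed means (TMM) moved it to -0.22. The 8 stem cell markers were all listed, summing to 1950 to 2780 FPM, with Nanog at 0.8 to 2.58 FPM as a group mean at 0 and 8 h. At 0 h their sum was lower in Triple_KO (2050 to 2110 FPM) than in WT (2460 to 2640 FPM) and the single knockouts (2400 to 2780 FPM), without overlap. By group means in WT and Triple_KO, Pou5f1 (845 and 707 FPM), Dppa5a (783 and 612), Tdgf1 (334 and 231) and Esrrb (248 and 197) were lower. Utf1 was slightly lower (95.3 and 87.9 FPM), Sox2 (129 and 129) and Zfp42 (114 and 113) stayed level, and Nanog was higher (2.2 and 2.58). At 8 h the sum was 2260 to 2340 FPM in WT and 1970 to 2160 FPM in Triple_KO. It covers opposite changes in WT group means from 0 to 8 h. Sox2 (129 to 19.1 FPM), Zfp42 (114 to 16.7), Esrrb (248 to 42.2), Utf1 (95.3 to 18.4), Tdgf1 (334 to 207) and Nanog (2.2 to 1.25) were lower at 8 h. Pou5f1 (845 to 997) and Dppa5a (783 to 993) were higher. At 8 h Esrrb (89.6 FPM), Utf1 (29), Sox2 (26.6), Zfp42 (20.2) and Nanog (1.58) were higher in Triple_KO than in WT. Pou5f1 (923), Dppa5a (797) and Tdgf1 (165) were lower. A list of 8 fibroblast genes, which would mark feeder cells, summed to 132 to 148 FPM in WT at 0 h and 237 to 280 FPM in Triple_KO, and to 244 to 277 and 354 to 436 FPM at 8 h. In Ythdf1_KO the list summed to 152 to 187 FPM at 0 h and, within the Triple_KO range, to 367 to 411 FPM at 8 h. In Ythdf2_KO and Ythdf3_KO it lay below WT at both times (134 to 166 and 203 to 236 FPM at 8 h). Trophectoderm and endoderm genes, 6 of 7 listed, summed to 104 to 122 FPM in WT and 246 to 265 FPM in Triple_KO at 0 h. The knockouts of Ythdf1, Ythdf2 and Ythdf3 had 163 to 179, 157 to 176 and 58.8 to 71.5 FPM. At 8 h the ranges of Ythdf1_KO (243 to 306 FPM) and Triple_KO (261 to 349 FPM) overlapped. Nearly all of the sum in WT and Triple_KO at 0 h was Krt8 (group means 75.4 and 145 FPM) and Krt18 (34.4 and 101 FPM). Cdx2, Gata6, Sox17 and Gata4 were at or below 4.26 FPM in WT and Triple_KO, so the sum mainly reflects these keratins. At 0 h Cdx2 (4.26 against 1.02 FPM), Sox17 (1.35 against 0.469) and Gata6 (1.43 against 1.33) were higher in Triple_KO than in WT. Gata4 was lower (0.938 against 1.51 FPM). In such bulk samples fewer cells of a type and less RNA per cell cannot be told apart, and the part of these cells in the results below was not tested.

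The constitutive proteasome genes were detected throughout, whereas the inducible beta subunits that replace them after interferon were at or near the detection limit, except Psmb10. Psmb8 had a read in 4 of 50 libraries and never more than 1. Psmb9, at 0 in all 4 WT libraries at 0 h, had a read in 25 of 50 libraries and 49 reads in all. Psmb11, the thymic subunit, had 8 reads in 8 libraries. The level that 3 reads would give was 1.28 to 3.76 FPM, so Psmb8 and Psmb11 stayed under it everywhere, and no change of theirs was detectable. Psmb10 stood at 20.4, 26.2, 22.4 and 18.9 FPM in the 4 WT libraries at 0 h and at 15.98, 20.06, 14.35 and 30.8 FPM at 8 h. The WT ranges overlap, and its group means lay between 16.5 and 28.6 FPM in every genotype and time. Psma8, the alpha subunit known from germ cells, had 174 reads in 46 libraries and at most 7.1 FPM. A list of 8 haematopoietic and antigen presentation genes, 6 of which were listed, summed to 72.8 to 98.9 FPM in WT at 0 h. Psmb8, Psmb9 and Psmb11 did not pass the filter of 5 FPM in 2 replicate means, which left 48 members tested for decay and, with Psma8 also under it at 0 h, 47 tested for levels.

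Through 8 h without transcription most proteasome mRNAs in WT cells were lost more slowly than the typical mRNA. Of the 48 members 27 fell and 0 rose (limma, adjusted p under 0.05), against 55.2% of 9078 genes that fell and 1.73% that rose. The share that fell is thus near the background, but the median change was -0.43 for the members and -0.81 for all genes, and 38 of 48 members lay above the median of all genes. Scaling decides the direction: with median scaling 13 members rose and 8 fell, with TMM 21 rose and 6 fell, while all genes split 786 to 3157 and 1398 to 2309.

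The roles differed in their medians. The 7 constitutive beta genes had a median change of -0.06 and 3 of them fell; the 8 alpha genes had -0.38 and 5 fell. Among the ATPases 5 of 6 fell (median -0.44), among the other regulatory particle genes 6 of 11 (median -0.29), and among the assembly chaperones 5 of 7 (median -0.89). Of the activators and the inhibitor 1 of 5 fell, Psme4, an activator that binds the core in place of the regulatory particle. The 6 lowest changes were those of Psmg3 (-2.44), Psme3ip1 (-1.75), Psmd7 (-1.56), Psmd5 (-1.34), Psmg2 (-1.29) and Psmc2 (-1.16), all of which fell. They include 3 assembly chaperones: Psmg3 and Psmg2 help to build the alpha ring, and Psmd5 the base of the regulatory particle. The 6 highest were those of Psme2b (0.05), Psmd8 (0.04), Psme2 (0.02), Psme1 (0.01), Psmb2 (0.00) and Psmb6 (-0.03), none of which passed the test. Psme2b has a single-exon model beside the 11 exons of Psme2, so reads may have been split between these 2 similar genes.

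The catalytic subunits were among the steady ones. Psmb6, which carries the caspase-like activity, stood at 266, 232, 237 and 236 FPM in WT at 0 h and at 225, 251, 233 and 245 FPM at 8 h. These libraries overlap, and the change was -0.03 ± 0.08 (SE; limma adjusted p = 0.778). Psmb7, with the trypsin-like activity, changed by -0.05 ± 0.09 (adjusted p = 0.626). Psmb5, with the chymotrypsin-like activity and the usual target of proteasome inhibitor drugs, fell by 0.20 on the log2 scale (SE 0.09, limma adjusted p = 0.0482), a call lost without WT replicate A or B. With TMM scaling the changes of these genes were 0.65, 0.62 and 0.48. The ubiquitin receptor Psmd4 fell by 0.48 and the deubiquitylase Psmd14 by 0.52, and Psmc3ip, a meiotic recombination cofactor named for its binding to Psmc3, fell by 0.97.

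Psmg3 had the lowest change of all members in WT. In WT it stood at 19.1, 20.3, 28.8 and 25.9 FPM at 0 h, at 2.58 and 2.39 FPM at 4 h, and at 5.71, 5.02, 1.69 and 2.64 FPM at 8 h. All libraries at 4 and 8 h lie below all at 0 h, with no separation between 4 and 8 h. The changes over 8 h, from -2.44 in WT and Triple_KO to -3.18 in Ythdf3_KO, were called in every genotype (SE 0.42 each). The 8 h values rest on 15 reads over the 4 WT libraries, so the size of the fold depends on the pseudocount.

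At 4 h 3 members rose in WT and 6 fell, against 3.61% and 27.3% of all genes, with a median change of -0.01 against -0.37. Those that rose were the lid subunit Psmd8 (0.30), the structural beta subunit Psmb3 (0.29) and Psmb6 (0.28); those that fell were Psmg3, Psmd5, Psmd7, Psme3ip1, Psmc2 and Psme4. With TMM scaling, which shifts all genes of a library together, 24 members rose and 2 fell. Counts of all genes under it are not given here, so this is no result about the members. Some of the calls were lost without WT replicate A or without B.

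**Figure D1:**
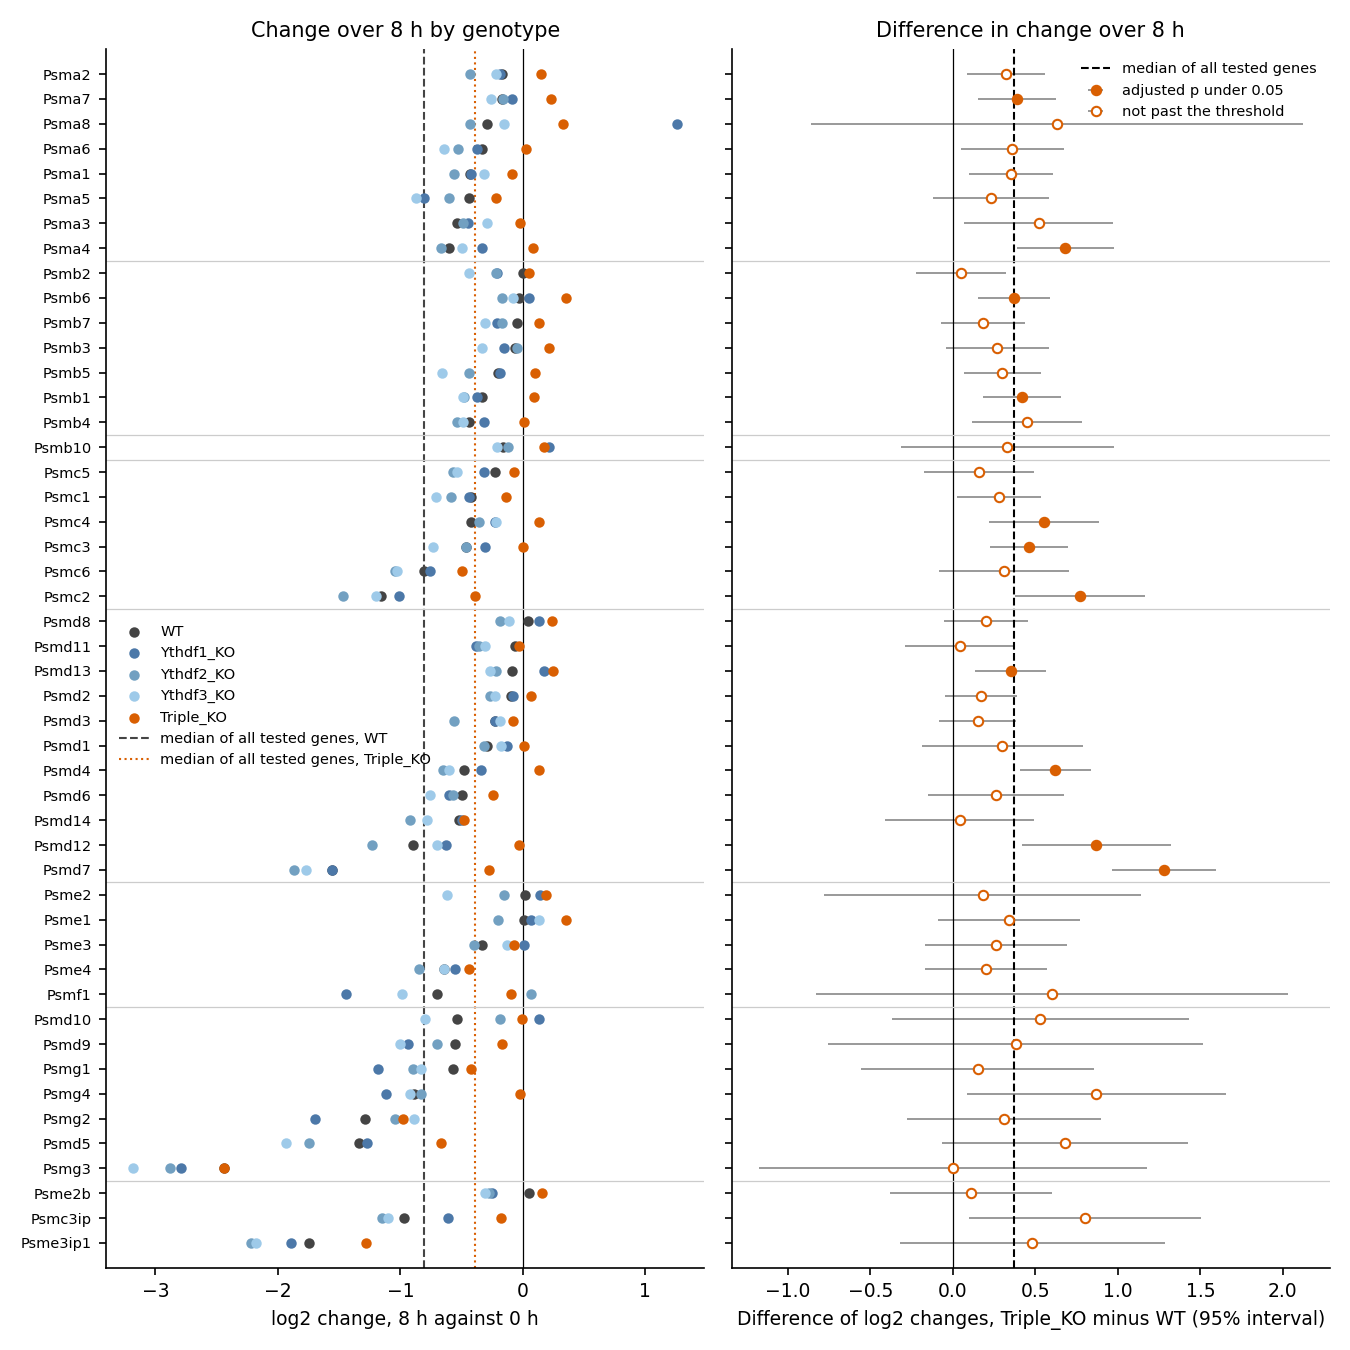
Each row is 1 of the 48 tested members, ordered by role. The left panel gives the log2 change from 0 to 8 h in the 5 genotypes with the median of all tested genes in WT (-0.81) and Triple_KO (-0.39); the right panel gives the Triple_KO change minus the WT change with its 95% interval, filled where the limma adjusted p is under 0.05 (11 members). Most members lie to the right of the WT median, and Psmd7 has the highest difference (1.28).

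In each single knockout most members fell, as did most of all tested genes. In Triple_KO most members, like most of all tested genes, did not pass the test in either direction. In Ythdf1_KO 31 members fell (background 54.5%) and 1 rose (background 1.38%), in Ythdf2_KO 35 fell and 0 rose (62.6% and 0.595%), and in Ythdf3_KO 35 fell and 0 rose (59.6% and 0.661%). The member medians were -0.34, -0.51 and -0.57, above the medians of all genes at -0.77, -0.91 and -0.83. The member that rose in Ythdf1_KO was the sparse Psma8, from a mean of 1.62 to 5.15 FPM (log2 change 1.26 ± 0.53 SE, adjusted p = 0.04). Psma8 reached at most 7.1 FPM in any library and did not pass the filter of 5 FPM at 0 h. It may therefore have entered the test through the group where it was high, so this call is no independent evidence of a rise. In Triple_KO 7 members fell and 4 rose, against 25.8% and 3.45% of all genes, and the median was -0.01 against -0.39. Those that rose were Psmb6 (0.35), the lid subunits Psmd13 (0.25) and Psmd8 (0.24), and Psma7 of the alpha ring (0.23). Those that fell were Psmg3 (-2.44), Psme3ip1 (-1.28), Psmg2 (-0.98), Psmc6 (-0.50), Psmd14 (-0.48), Psme4 (-0.44) and Psmc2 (-0.39). With TMM scaling, which shifts all genes of a library together, 22 members rose in Triple_KO and 3 fell. Counts of all genes under it are not given here, so this is no result about the members. The 32 calls of Ythdf1_KO became 21 without its replicate A or B, Psma8 among those lost, and the 11 of Triple_KO became 2 without its replicate A and 4 without B.

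Summed over the 36 subunits the difference is plain in FPM and smaller as a share. The WT sum was 4840 ± 112 FPM at 0 h (SD, 4 libraries), 4900 ± 128 at 4 h (2 libraries) and 3910 ± 14.9 at 8 h. In Triple_KO it was 5170 ± 122, 5710 ± 72.1 and 5330 ± 205 FPM. The ratio of 8 h to 0 h was 0.809 in WT, 0.826, 0.727 and 0.734 in the knockouts of Ythdf1, Ythdf2 and Ythdf3, and 1.033 in Triple_KO.

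As a share of all listed genes the same sum was higher at 8 h than at 0 h in every genotype. It was 1.12%, 1.22% and 1.18% in WT at 0, 4 and 8 h, a ratio of 8 h to 0 h of 1.056, and 1.16%, 1.27% and 1.30% in Triple_KO, a ratio of 1.114. In WT and the single knockouts the mean share was lower at 8 h than at 4 h (1.26% and 1.25% in Ythdf1_KO, 1.23% and 1.21% in Ythdf2_KO, 1.24% and 1.21% in Ythdf3_KO), and in Triple_KO it was higher. At 8 h the Triple_KO libraries lay at 1.29 to 1.31%, above the 1.17 to 1.2% of WT, the 1.23 to 1.26% of Ythdf1_KO, the 1.19 to 1.23% of Ythdf2_KO and the 1.2 to 1.23% of Ythdf3_KO. At 0 h the ranges of the 4 knockouts overlapped, and those of Ythdf2_KO, Ythdf3_KO and Triple_KO were above the 1.1 to 1.13% of WT.

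**Figure D2:**
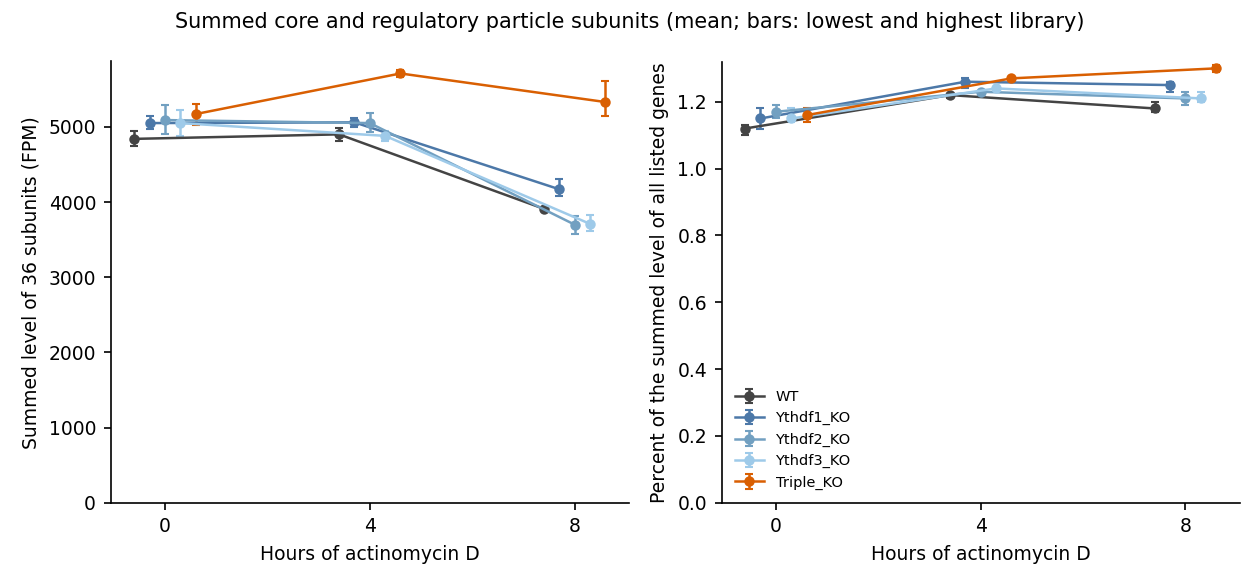
Summed level of the 36 subunits in FPM (left) and as a percent of the summed level of all listed genes (right) against hours of actinomycin D. Points are means of 4 libraries at 0 and 8 h and of 2 at 4 h, offset by genotype, with bars to the lowest and highest library; in FPM only Triple_KO (5330) stays near its 0 h level (5170) at 8 h, and as a share it ends highest at 1.30%.

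The change over 8 h in Triple_KO was compared with that in WT as a difference of log2 changes. It was positive for 47 of the 48 members, with a median of 0.33, but the median of all genes was 0.37 and 20 of 48 members lay above it. The test called 11 members as decaying less in Triple_KO, against 7.22% of all genes: 2 alpha genes (Psma4, Psma7), 2 beta genes (Psmb1, Psmb6), 3 ATPases (Psmc2, Psmc3, Psmc4) and 4 other regulatory particle genes (Psmd4, Psmd7, Psmd12, Psmd13). No assembly chaperone, activator or inhibitor was called. With median or TMM scaling, which brought the median of all genes to 0.06 and 0.08, Psmd7 alone remained called, and without the low-value filter 4 of the 11 did. Leaving out 1 replicate of either genotype left 2 to 7 called members, fewest (2) without Triple_KO replicate B and 3 without its replicate A; Psmd7 was among them each time.

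Psmd7 (chromosome 8, 107580380 to 107588482, GRCm38) encodes a scaffold subunit of the lid, the partner of the deubiquitylase Psmd14. In WT it stood at 181, 142, 152 and 159 FPM at 0 h, at 80.9 and 96.5 FPM at 4 h, and at 58.2, 51.2, 44.7 and 59.0 FPM at 8 h. In Triple_KO it stood at 198, 203, 220 and 227 FPM at 0 h, at 238 and 217 FPM at 4 h, and at 196, 163, 171 and 168 FPM at 8 h. The 8 h libraries of Triple_KO lie above every 8 h library of the other genotypes, the highest of which was 77.0 FPM in Ythdf1_KO, and overlap the WT libraries at 0 h. The change over 8 h was -1.56 ± 0.12 (SE) in WT, and -1.56, -1.87 and -1.77 in the single knockouts of Ythdf1, Ythdf2 and Ythdf3. In Triple_KO it was -0.28 ± 0.12 (limma adjusted p = 0.0593). Triple_KO differed from WT by 1.28 ± 0.16 (limma adjusted p = 2.47e-08; 1.37 in replicate A and 1.18 in B), 0.91 above the difference of the median gene. Over 12 alternatives the difference ranged from 0.94 to 1.40 and was called in all of them.

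At 4 h Psmd7 was the only member called, with a difference of 0.93 ± 0.16 (limma adjusted p = 1.78e-04), against 1.53% of all genes. That call was lost without Triple_KO replicate A (adjusted p = 0.111), and edgeR on the recovered reads also called Psmd4.

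**Figure D3:**
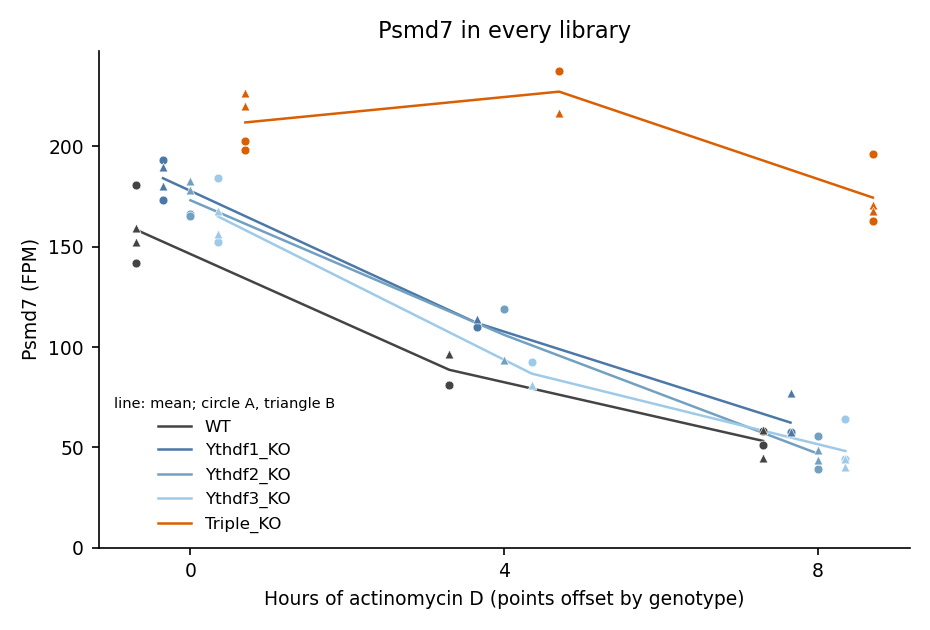
Psmd7 in FPM in each of the 50 libraries against hours of actinomycin D, offset by genotype; circles are replicate A, triangles replicate B and lines join the means. At 8 h the 4 Triple_KO libraries (163 to 196 FPM) are above the 16 libraries of the other genotypes, all at or below 77.0 FPM.

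The Psmd7 transcript was searched for GGACT, the commonest form of the sequence in which m6A lies, on the transcript strand. The transcript model (1581 nt, 7 exons, RefSeq gene matched to GENCODE M21, GRCm38, minus strand) holds 3 such motifs, all in coding sequence. They are shown with 8 flanking bases because Psmd7 is the member whose decay differed most, with the motif in capitals, on chromosome 8 in exon 5 (107584205 to 107584225), exon 7 (107581284 to 107581304) and exon 7 (107581240 to 107581260):
Psmd7 exon 5: aggacctaGGACTtcccaccg
Psmd7 exon 7, first: tacagtggGGACTctctccca
Psmd7 exon 7, second: gcttgaagGGACTgaactcca
A match is a description of the letters only, since the files hold no methylation data. The motif was present in the transcripts of 39 of the 48 tested members (81.2%) and of 91.1% of 8680 tested genes with a model, with a median of 2 and 3 per transcript and 1.205 and 1.06 per kb.

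The other 10 called members had a smaller decrease in WT than Psmd7. In Triple_KO over 8 h Psmc2 fell, Psmb6, Psmd13 and Psma7 rose, and the other 6 did not pass the test. Psmd12, a scaffold subunit of the lid, stood at 41.1, 42.1, 31.2 and 45.8 FPM in WT at 8 h and at 72.5, 74.3, 80.3 and 67.7 FPM in Triple_KO. The genotypes do not overlap at 8 h, while at 0 h (65.3 to 83.7 and 62.6 to 79.9 FPM) they do. The difference in change was 0.87 ± 0.23 (SE; limma adjusted p = 0.00822). Psmc2, an ATPase of the base, stood at 26.3, 56.2, 45.6 and 41.4 FPM in WT at 8 h and at 71.8, 77.2, 80.3 and 71.2 FPM in Triple_KO. Its WT duplicates of replicate A lie 29.9 FPM apart, yet the genotypes do not overlap, and the difference was 0.77 ± 0.20 (adjusted p = 0.00997).

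Psma4, an alpha ring subunit, stood at 102, 101, 106 and 87.1 FPM in WT at 8 h and at 179, 177, 194 and 200 FPM in Triple_KO. The Triple_KO values at 8 h are within or above their 0 h range of 172 to 182 FPM, and the difference was 0.68 ± 0.15 (limma adjusted p = 0.00163). Psmd4 stood at 188, 200, 169 and 199 FPM in WT at 8 h and at 299, 310, 311 and 300 FPM in Triple_KO, again without overlap (difference 0.62 ± 0.11, adjusted p = 4.10e-05). The remaining 6 called members differed by 0.35 (Psmd13) to 0.55 (Psmc4). Of the catalytic subunits only Psmb6 was called (0.37 ± 0.11, adjusted p = 0.0219); Psmb5 differed by 0.30 (adjusted p = 0.134) and Psmb7 by 0.18 (adjusted p = 0.46). Psmd14, the partner of Psmd7, differed by 0.04 with a 95% interval of -0.41 to 0.49, and its 8 h ranges overlapped (29.1 to 46.6 FPM in WT, 38.8 to 55.9 FPM in Triple_KO).

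**Figure D4:**
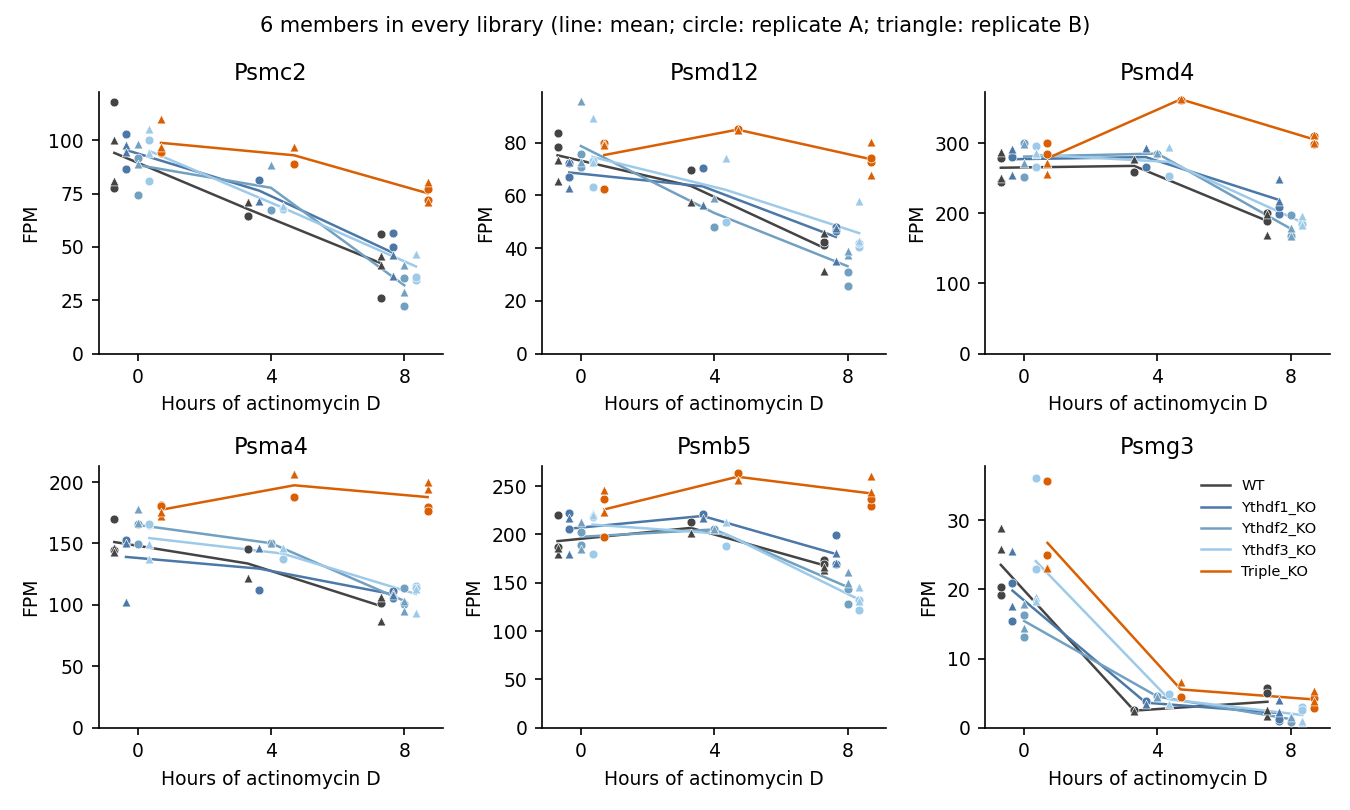
Level in FPM of Psmc2, Psmd12, Psmd4, Psma4, Psmb5 and Psmg3 in each library against hours of actinomycin D, offset by genotype, with lines through the means (circles replicate A, triangles replicate B). In the first 5 panels the Triple_KO libraries at 8 h are above those of every other genotype, whereas Psmg3 is below 7 FPM in all libraries at 4 and 8 h.

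Counted by library, all 4 Triple_KO libraries at 8 h lay above all WT libraries for 26 of the 48 tested members (54.2%), against 27.3% of all tested genes. They lay above every library of the other 4 genotypes for 15 members (31.2%), against 14.1%. These counts use FPM, in which the listed genes of Triple_KO hold a larger share at 8 h, and they include level differences present at 0 h. Libraries also separate more easily for genes with more reads, and the share of all genes was not matched for level. The higher shares are therefore no sign of a larger difference in the members, whose median difference in change was below that of all genes.

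Against the mean of the 3 single knockouts, 26 members decayed less in Triple_KO, against 17% of all genes, with a median difference of 0.41 beside 0.42 for all genes. They comprised 6 of 8 alpha genes, 7 of 7 constitutive beta genes, 5 of 6 ATPases, 6 of 11 other regulatory particle genes and 2 of 7 chaperones. The smallest adjusted p-values belonged to Psmd7 (1.45 ± 0.13, limma adjusted p = 1.09e-13), Psmd4 (0.67), Psmb5 (0.54), Psmb1 (0.53), Psmc2 (0.84) and Psmc3 (0.50). Under median or TMM scaling Psmd7 was again the only one called. Without Triple_KO replicate A 8 members were called, and without its replicate B 10.

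No member's decay was called as different from WT in a single knockout by limma, where 0.0441%, 0.176% and 0.33% of all genes were called in Ythdf1_KO, Ythdf2_KO and Ythdf3_KO. Without a share of all genes beside them, the limma unadjusted p was under 0.05 for 3, 4 and 5 members, and edgeR called 0, 0 and 1. The last was Psmb5 in Ythdf3_KO, where the difference was -0.46 ± 0.12 (SE; limma adjusted p = 0.0745, edgeR adjusted p = 0.0128). For Psmd7 the 95% intervals of the differences were -0.32 to 0.32, -0.63 to 0.01 and -0.54 to 0.11, and these misses do not show that the lines act alike. The WT libraries are shared by these comparisons.

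Before actinomycin D few proteasome genes passed the test for a difference from WT. In Triple_KO 4 of 47 members differed from WT, all higher, against 21.9% of 8697 genes: Psmd7 (0.42 ± 0.07 SE, limma adjusted p = 4.40e-07), the lid subunit Psmd11 (0.31), Psma4 (0.23) and Psmb5 (0.22). Psmd7 was higher in all 4 Triple_KO libraries (198 to 227 FPM) than in all WT libraries (142 to 181 FPM). Its call held in all 12 alternatives, those of Psma4 and Psmb5 were lost with TMM scaling, and those of Psma4, Psmb5 and Psmd11 were lost without Triple_KO replicate B. The calls of Psma4 and Psmb5 were also lost without WT replicate B, that of Psmd11 without WT replicate A and that of Psma4 without Triple_KO replicate A.

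In Ythdf1_KO 1 member differed from WT at 0 h, against 2.62% of genes. This was Psma2, an alpha subunit, at 295, 288, 277 and 282 FPM against 225, 247, 240 and 245 FPM in WT, without overlap (0.26 ± 0.06 SE, limma adjusted p = 0.00396). In Ythdf2_KO 5 differed, against 8.2% of genes: Psma2 (0.19) and Psmb6 (0.22) were higher, and Psmc3 (-0.19), Psme4 (-0.35) and Psmg3 (-0.57) lower. In Ythdf3_KO 1 differed, against 4.46% of genes: Psme4, at 116, 87.1, 99.4 and 77.5 FPM against 133, 122, 98.3 and 124 FPM (-0.33 ± 0.09, adjusted p = 0.0131). The Psme4 ranges overlap in Ythdf3_KO. Psma2 in Ythdf1_KO lost its call without replicate A of WT or of Ythdf1_KO, Psme4 in Ythdf3_KO without WT replicate A or Ythdf3_KO replicate B, and all 5 of Ythdf2_KO without its replicate B, while 2 to 3 were called without the other replicates. Estimating the spread over all 30 replicate means left 0, 0, 0 and 1 calls in the 4 knockouts, and testing all genes without the filter left 0, 0, 0 and 2.

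The member transcripts were shorter than the typical tested transcript in their medians, over a wide range. Over GENCODE M21 transcript models the 48 tested members had a median length of 1415 nt against 2788.5 nt for 8680 tested genes, and a median 3′ UTR of 230 nt against 894 nt. Member lengths ran from 555 to 6490 nt and 3′ UTRs from 47 to 2840 nt, with Psme4 the longest (47 exons). The median number of exons was 8 against 9, and the median number of exon junctions per kb 5.71 against 3.32. An internal exon of at least 400 nt occurred in 0 of 48 members and in 17.9% of the genes. The longest internal exon of Psmd7 was 98 nt, and its 3′ UTR of 506 nt was longer than the member median. These are descriptions of the models, and their relation to decay was not tested.

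The promoters were searched for TGACNNNGC, the core of the antioxidant response element bound by NFE2L1 and NFE2L2 with small MAF proteins, and for CCAAT, the NF-Y box, on both strands of the window from 250 bases before to 50 after the start (RefSeq, GRCm38.p6). The first was found in 6 of 43 members with a window (14%) and in 14% of 27025 genes, and the second in 16 members (37.2%) and in 41.1% of genes, so neither share stood apart. The matches of the 2 catalytic subunit genes that have one are shown with the motif in capitals, on the gene's strand, for Psmb5 (chromosome 14, 54618026 to 54618050, minus strand) and Psmb6 (chromosome 11, 70525340 to 70525364, plus strand):
Psmb5 promoter: tgaagttgTGACGTCGCggcgttgc
Psmb6 promoter: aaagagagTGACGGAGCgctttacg
The other 4 matches were in Psmc6, Psmd12, Psmd9 and Psme4. A match is no evidence of binding.

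Of 34 other genes of the pathway, 30 were tested, and 19 (63.3%) fell over 8 h in WT, with a median of -0.61, beside 55.2% and -0.81 for all genes. In the decay difference of Triple_KO against WT 3 (10%) were called, beside 7.22% of all genes, all positive: Ubb, the thioredoxin-like Txnl1 that binds the regulatory particle (0.66), and the shuttle factor Ubqln4 (0.58). Ubb, a polyubiquitin gene, fell from 454 ± 24.5 to 104 ± 15.9 FPM in WT (SD, 4 libraries) and from 448 ± 10.2 to 264 ± 17.8 FPM in Triple_KO. Its 8 h ranges do not overlap (90.3 to 126 and 245 to 281 FPM), and the difference was 1.37 ± 0.12 (SE; limma adjusted p = 1.18e-14), kept at 1.02 and 1.03 with median and TMM scaling. The calls of Txnl1 and Ubqln4 were lost with median or TMM scaling, without WT replicate A and without Triple_KO replicate A or B, and that of Ubqln4 also without WT replicate B. Ubb also differed in Triple_KO over 4 h (1.2). In Ythdf1_KO over 8 h it differed by 0.56 (limma adjusted p = 0.0183), a call that held in 5 of 12 alternatives and was lost without any 1 replicate of WT or Ythdf1_KO (adjusted p up to 0.455, without WT replicate B). Reads of Ubb and of its near copies may have been split in counting. Rps27a, a fusion of ubiquitin with a ribosomal protein, was called in Ythdf3_KO (-0.34), a call lost with median or TMM scaling and without any 1 replicate of WT or Ythdf3_KO.

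At 0 h 5 partner genes (16.7%, beside 21.9% of all genes) differed in Triple_KO: the heat shock factor Hsf1 (0.73), Ecpas (0.62), Sem1 (0.32) and Vcp (0.19) were higher, and Fbxo7 (-0.62) lower. Each of these calls was lost without at least 1 of the replicates of WT or Triple_KO: Hsf1 without WT A, Sem1 without WT A or Triple_KO B, Ecpas without WT B or Triple_KO B, Vcp without WT A or Triple_KO A or B, and Fbxo7 without WT B or Triple_KO A or B. Sem1 is a small lid subunit outside the name pattern, Ecpas a proteasome adaptor, and Vcp the ATPase that extracts ubiquitylated proteins. Against the single knockouts 7 partners (23.3%) decayed less in Triple_KO, beside 17% of all genes, with a median of 0.42 for both: Ubb (1.21), the deubiquitylase Uchl5 (0.83), Ubqln4 (0.64), Txnl1 (0.62), the transcription factor Nfe2l1 (0.54), Rps27a (0.41) and the shuttle factor Rad23b (0.32). With median or TMM scaling Ubb alone remained called, the value of Rad23b turned negative, and that of Rps27a did with median scaling. Without Triple_KO replicate A the calls of Uchl5, Ubqln4, Nfe2l1 and Rad23b were lost, and without its replicate B those of Txnl1 and Rad23b.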

How the data were processed

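The deposited table gives FPM, a read count per RefSeq transcript scaled by the authors to the reads of the library (the unit also called RPM). Per the submitters' processing notes, CASAVA 1.8.2 and Bowtie2 were used with build mm10. How reads were assigned to transcripts is not given in the sources used here. Whole reads were recovered for 100% of values (within 0.1 read) in 50 libraries of 796921 to 2341410 reads, so the counts carry sampling error of low genes; floors cover counting error only. Symbols came from RefSeq (21729 transcripts) and GENCODE M21 (120), leaving 489 unnamed; identical transcripts of a gene were counted once and others summed.

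Values were taken as log2(FPM + 1), with which changes of low genes are understated, and duplicates averaged. Then limma 3.58.1 (R 4.3.3, trend) was fitted with the replicate as the unit (n = 2), over 30 replicate means for decay and 10 for levels, on genes of at least 5 FPM in 2 means. P-values were adjusted over all genes (Benjamini-Hochberg). Alternatives were a pseudocount of 0.5, no filter, median scaling (genes of at least 20 FPM), TMM scaling, a replicate block, other sample sets, the highest row of each gene, leaving out replicates, and edgeR 4.0.16 on recovered reads. Same-numbered replicates did not deviate together (correlations -0.04 to 0.04), so they were not paired. Duplicates differed beyond sampling noise (median chi-square per degree of freedom 1.41 against 1.37 between A and B). By this measure A and B differed no more than duplicate libraries of 1 replicate, which bears on the spread that the p-values measure.

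The members and lists were chosen with earlier results of these data known, and the GGACT search was added afterwards. Named genes were the catalytic, inducible and other stated members, those called in a knockout comparison (up to 12, otherwise the 6 with the smallest adjusted p), the 6 lowest and highest in WT, and partners called in a knockout comparison (up to 8). Beyond it, Psmg3 at 8 h and the genes called at 4 h in WT, at 8 h in Triple_KO and in edgeR were named after their values were seen. The script for the fits was tested on simulated data. Some genes of the partner list are not reported here.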

Additional observations from a re-analysis of the deposited data

Results flagged for a closer look

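In groups of 4 libraries the highest or lowest value stood apart (gap over range above 0.829) in 13 of 150 groups examined over 14 members and the subunit sum, where chance flags about 1 in 20. All values are FPM. High single libraries were those of Psma4 (170) and Psmb6 (266) in WT at 0 h, Psmb10 in Ythdf1_KO at 0 h (25.5), Psmd7 in Ythdf1_KO at 8 h (77.0, others 57.4 to 57.7), Psmb1 in Ythdf2_KO at 0 h (241), Psma2 in Ythdf3_KO at 0 h (261), Psmd12 in Ythdf3_KO at 8 h (57.9) and Psmg3 in Triple_KO at 0 h (35.6). Low single libraries were those of Psma4 in Ythdf1_KO at 0 h (102) and in Ythdf3_KO at 8 h (93.3), Psmd12 in Ythdf1_KO at 8 h (34.9) and in Triple_KO at 0 h (62.6), and Psmb5 in Ythdf3_KO at 0 h (180).

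The change over 8 h differed between Triple_KO and WT by the test of the difference itself (limma adjusted p under 0.05), on the log2 scale, for Psmd7 (1.28), Psmd12 (0.87), Psmc2 (0.77), Psma4 (0.68), Psmd4 (0.62), Psmc4 (0.55), Psmc3 (0.46), Psmb1 (0.42), Psma7 (0.39), Psmb6 (0.37) and Psmd13 (0.35). Over 4 h it differed for Psmd7 (0.93). Against the mean of the single knockouts it differed, among the members named, for Psmd7 (1.45), Psmc2 (0.84), Psmd4 (0.67), Psmb5 (0.54), Psmb1 (0.53), Psmc3 (0.50), Psmb6 (0.41) and Psmb7 (0.36).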

How the results depend on the processing

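Scaling, which shifts all genes of a library together, had the widest effect, and the counts below are of members only. With median scaling the members called were 21 in Ythdf1_KO, 17 in Ythdf2_KO and 18 in Ythdf3_KO over 8 h, 1 in the decay difference of Triple_KO against WT, 1 against the single knockouts, and 3 in the Ythdf2_KO level at 0 h. With TMM they were 26 in WT at 4 h, 23 in Ythdf3_KO and 25 in Triple_KO at 8 h, 1 and 1 in the Triple_KO differences, and 2 and 2 in the levels of Ythdf1_KO and Triple_KO. Member medians turned to 0.24 (WT), 0.26 (Ythdf1_KO), 0.27 (Ythdf2_KO) and 0.17 (Ythdf3_KO) with TMM, to 0.06 in Ythdf1_KO with median scaling, and to -0.09 with TMM in the 4 h difference. Changes in WT over 8 h turned, with median and TMM scaling, to 0.38 and 0.65 for Psmb6, 0.21 and 0.48 for Psmb5, and 0.35 and 0.62 for Psmb7, and with TMM to 0.19 for Psmd4 and 0.15 for Psmd14. Differences against the single knockouts turned to -0.01 for Psmb6 and Rps27a (median), -0.07 and -0.02 for Psmb7, and -0.10 and -0.05 for Rad23b. Taken as a share of listed genes, the ratios of the subunit sums were 1.056 (WT), 1.084, 1.036 and 1.050 (Ythdf1_KO, Ythdf2_KO, Ythdf3_KO) and 1.114 (Triple_KO). By construction median scaling removes the shift of the median of its 1917 reference genes, and TMM scaling that of a trimmed mean. The shift of the median tested gene was reduced by both in WT over 8 h and in the Triple_KO difference from WT over 8 h, but was not removed.

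Testing all genes without the filter left 4 and 15 calls in the Triple_KO differences and 0, 0, 0 and 2 in the levels, and the fit over all 30 replicate means left 0, 0, 0 and 1. At 4 h the fit on the genotypes compared and edgeR each called 2, and edgeR called 1 in the Ythdf3_KO decay difference. Leaving out 1 replicate gave 20 to 21 members called in WT at 8 h, 4 at 4 h, 21 in Ythdf1_KO, 26 to 29 in Ythdf2_KO, 27 to 29 in Ythdf3_KO and 2 to 4 in Triple_KO. It gave 0 in each single-knockout difference, 2 to 7 in Triple_KO against WT, 8 to 26 against the single knockouts, 0 to 1 at 4 h, and 0 to 2, 0 to 3, 0 to 1 and 1 to 5 in the levels. In these fits the lone replicate is assumed to vary like the other groups. The ratios of sums ranged from 0.807 to 0.81, 0.823 to 0.83, 0.712 to 0.741, 0.733 to 0.735 and 1.027 to 1.039. With the replicate block the counts stayed the same in all 16 comparisons (27 in WT at 8 h and 11 in Triple_KO against WT), and 0 of 153 single-gene calls changed. Apart from the shares and scalings above, the cause of these changes was not tested. Depth limits Psma8, Psmb8, Psmb9 and Psmb11, with at most 8 reads in any library, and Psmg3 at 4 and 8 h, with 2 to 5 reads per WT library at 8 h.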
